A study of Mus musculus with 10 samples.

Results

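The genes described here are the 3 subunits of the epithelial sodium channel ENaC and 6 genes of the mineralocorticoid pathway that controls it, chosen by name: Scnn1a, Scnn1b, Scnn1g, Nr3c2, Hsd11b2, Sgk1, Nedd4l, Fxyd4 and Atp1b1. They are 9 of the 18193 genes that the array names, and all 9 were among the 11486 genes bright enough to be tested. Their RNA was measured with 1 Affymetrix array per mouse in cortex of the remaining kidney of 10 mice of strain FVB/N, which were 20 weeks old. Every mouse had undergone 2/3 kidney ablation and removal of a kidney, so loss of renal mass is common to both groups. The drugs were given for 6 weeks, from week 6 after ablation and week 4 after uninephrectomy: 5 mice received losartan, a blocker of the type 1 angiotensin II receptor, at 500 mg/l, and 5 mice received the renin inhibitor aliskiren at 50 mg/kg per day. The comparison asks how cortical RNA differs with losartan and with aliskiren. Since mice without a drug were not analysed here, a lower value with aliskiren is also a higher value with losartan, and neither can be read as a drug's own effect.

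ENaC carries sodium from the urine into the principal cells of the connecting tubule and collecting duct, and the sodium pump on the other side of the cell moves it on into the blood. Aldosterone, whose release angiotensin II drives, binds the mineralocorticoid receptor in these cells and raises channel and pump activity. The kinase SGK1, a product of an early aldosterone target gene, phosphorylates the ubiquitin ligase NEDD4-2 and so keeps it from removing ENaC from the membrane.

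The labelled tissue was checked against marker genes. Proximal tubule markers averaged between 12.5 and 12.9 on the log2 scale in every mouse, and 10 of 12 principal cell markers, the aquaporin gene Aqp2 among them, reached the level required for testing, whereas Hoxb7 and Elf5 did not. The adrenal genes Cyp11b1 and Cyp11b2, which encode the last enzymes of corticosterone and aldosterone synthesis, lay below that level, as did Hsd3b1, while the other 2 adrenal genes listed, Cyp21a1 (mean 6.93) and Star (mean 5.92), reached it. Also below it were the 3 markers of lung and intestine, tissues that also use ENaC. Losartan mouse 3 stood apart in some marker lists. Its tubular injury markers averaged 11.01 against 7.81 to 9.43 in the other losartan mice and up to 9.75 with aliskiren. The 2 tested markers of perirenal fat, Retn and Fabp4, averaged 12.39 in that mouse against at most 10.03 elsewhere. The fat markers Adipoq, Cidec and Ucp1 were below the level for testing, Adipoq only just (mean 5.52 against 5.53). That level is applied to the mean over all mice, so it does not describe losartan mouse 3 alone. Several differences, lists and correlations are therefore also given without this mouse. In bulk tissue, fewer cells of a type and less RNA per cell cannot be told apart.

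The start-site regions of the genes are shown first because steroid receptors act on DNA. From RefSeq (build GRCm38.p6), 11 windows for 6 of the 9 genes were used, and the 250 bases before each start were searched on both strands. No window of Scnn1a, Hsd11b2 or Nedd4l was among them. The selection for the 9 genes skipped a chromosome that the share over all genes kept. This does not account for every missing window, and the reason for the others was not looked at. A missing window is therefore no sign of a lack in RefSeq. The palindromic element shared by the mineralocorticoid and glucocorticoid receptors, searched as AGAACA and its reverse complement with any 3 bases between them, was present in 3 of 32851 such windows over all genes, or 0.00913%. One of these, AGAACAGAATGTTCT, belonged to Sgk1, at chr10:21993701-21993715 on the plus strand, 189 bases before 1 of the 6 starts listed for the gene and 965 bases before the start farthest downstream; the others belonged to Acnat2 and Gm35041. The single element AGAACA, which is contained in the palindrome, occurred in 16.1% of all windows and in 3 of the 11 windows here, all of them at Sgk1. Scnn1g and Scnn1b are neighbours on chromosome 7 with 0 genes listed between them, and their windows are shown because both encode ENaC subunits; they held no AGAACA. Each held the GC box GGGCGG or its complement, as did 32.7% of all windows. A match of letters is a description and does not show binding. The capitals mark the palindrome in the Sgk1 window (chr10:21993640-21993889, plus strand) and GC boxes in the windows of Scnn1g (chr7:121734229-121734478, plus strand) and Scnn1b (chr7:121864788-121865037, plus strand).
Sgk1: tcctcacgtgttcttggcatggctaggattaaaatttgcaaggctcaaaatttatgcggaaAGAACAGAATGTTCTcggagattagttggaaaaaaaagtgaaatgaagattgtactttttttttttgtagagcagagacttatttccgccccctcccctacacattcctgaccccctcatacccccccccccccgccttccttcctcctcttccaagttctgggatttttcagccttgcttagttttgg
Scnn1g: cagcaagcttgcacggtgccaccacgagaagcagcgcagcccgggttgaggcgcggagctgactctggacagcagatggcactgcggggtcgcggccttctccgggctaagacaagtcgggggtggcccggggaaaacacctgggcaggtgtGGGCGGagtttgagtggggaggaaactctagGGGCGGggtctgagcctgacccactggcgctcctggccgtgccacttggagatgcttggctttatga
Scnn1b: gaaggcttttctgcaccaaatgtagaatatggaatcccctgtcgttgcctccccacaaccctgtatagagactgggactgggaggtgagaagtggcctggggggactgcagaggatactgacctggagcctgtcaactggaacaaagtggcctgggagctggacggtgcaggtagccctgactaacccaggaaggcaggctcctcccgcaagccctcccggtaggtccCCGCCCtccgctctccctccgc

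The ENaC subunit RNAs were lower with aliskiren than with losartan in group means, losartan over aliskiren being 1.32-fold for Scnn1a, 1.28-fold for Scnn1b and 1.26-fold for Scnn1g, but no gene of the array passed the test. The fit was made with limma over all 11486 genes, and 0 genes had an adjusted p under 0.05 (0% called; lowest adjusted p 0.945). An unadjusted p under 0.05 was reached by 542 genes (573 without moderation of the variance, where again 0 passed after adjustment), 4.72% of those tested. Of the 9 genes described here, 4 lay at that level, namely the 3 subunits and Hsd11b2, all lower with aliskiren, against 2.53% of all tested genes lower and 2.19% higher at that level. In 8 of the 9 the mean was lower with aliskiren, as it was for 53.8% of all genes tested. Among these 8, the 95% intervals of Sgk1, Nr3c2, Fxyd4 and Nedd4l included 0, and Nedd4l, at -0.01, changed sign in several refits. The median difference of the 9 was -0.30, against -0.01 over all genes. The genes were selected with earlier results of these data known, so these shares are descriptions.

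**Figure D1:**
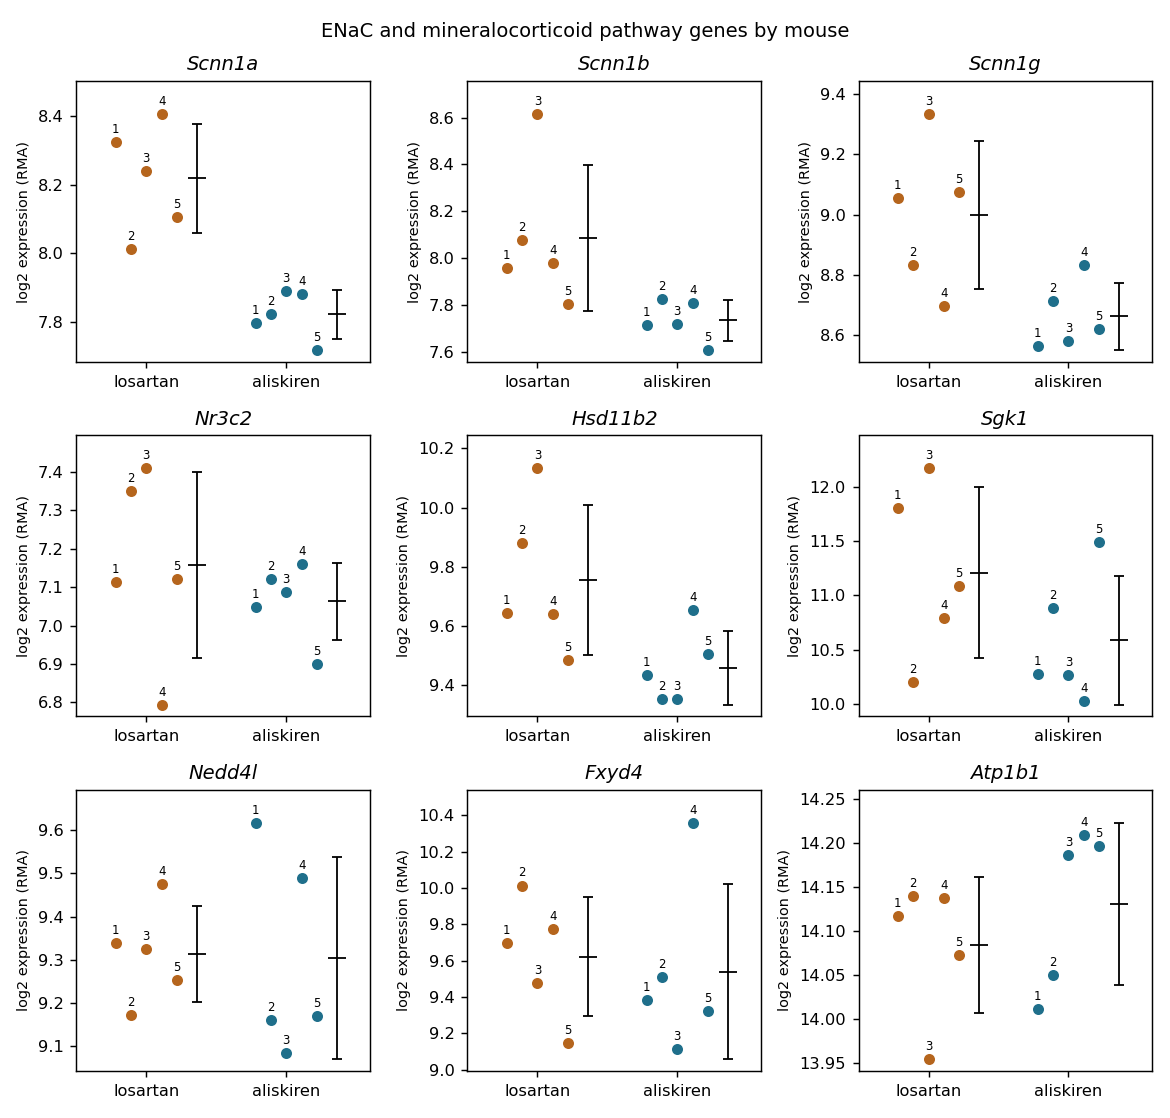
Log2 expression (RMA) of the 9 genes in each mouse, by drug, with the mouse number above each point and the group mean ± SD (n = 5) beside the points; the vertical axes differ between genes and do not start at 0. Scnn1a is the gene in which all aliskiren mice lie below all losartan mice, and Sgk1 has the widest range.

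Scnn1a encodes the alpha subunit, which the other subunits need to form a channel at the membrane. With losartan, mice 1 to 5 had log2 values of 8.32, 8.01, 8.24, 8.41 and 8.11, and with aliskiren 7.80, 7.82, 7.89, 7.88 and 7.72. Every aliskiren mouse lay below every losartan mouse, a separation in either direction that 0.914% of all tested genes showed. The means were 8.22 ± 0.16 (SD, n = 5) and 7.82 ± 0.07, a difference of -0.40 (SE 0.08, 95% interval -0.57 to -0.22), or 1.32-fold more with losartan. By p, Scnn1a ranked 2 among the 11486 genes (limma, unadjusted p = 0.000472, adjusted p = 0.945). Its exact permutation p over the 10 mice was 0.00794, the smallest that 5 against 5 can give. The difference lay between -0.45 and -0.35 when each mouse was left out in turn.

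Scnn1b encodes the beta subunit. Its values were 7.96, 8.08, 8.62, 7.98 and 7.80 with losartan and 7.71, 7.82, 7.72, 7.81 and 7.61 with aliskiren. The groups overlapped through losartan mouse 5, which lay below aliskiren mice 2 and 4. Losartan mouse 3 was the highest, at 8.62 against 8.08 for the next. The difference was -0.35 (SE 0.13, 95% interval -0.65 to -0.06; limma unadjusted p = 0.0241, adjusted p = 0.945), and without losartan mouse 3 it was -0.22 (SE 0.07, limma unadjusted p = 0.0109), smaller but also less variable. Its unadjusted p ran from 0.0101 to 0.0552 when each mouse was left out, the highest without aliskiren mouse 5.

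Scnn1g encodes the gamma subunit, whose cleavage opens the channel further. It had 9.05, 8.83, 9.33, 8.70 and 9.08 with losartan and 8.57, 8.71, 8.58, 8.83 and 8.62 with aliskiren. Losartan mouse 3 was again the highest, losartan mouse 4 lay below aliskiren mice 2 and 4, and losartan mouse 2 lay just below aliskiren mouse 4. The difference was -0.34 (SE 0.11, 95% interval -0.59 to -0.09; limma unadjusted p = 0.0134, adjusted p = 0.945). Leaving out single mice moved it between -0.41 and -0.25, the latter without losartan mouse 3 (limma unadjusted p = 0.0218).

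**Figure D2:**
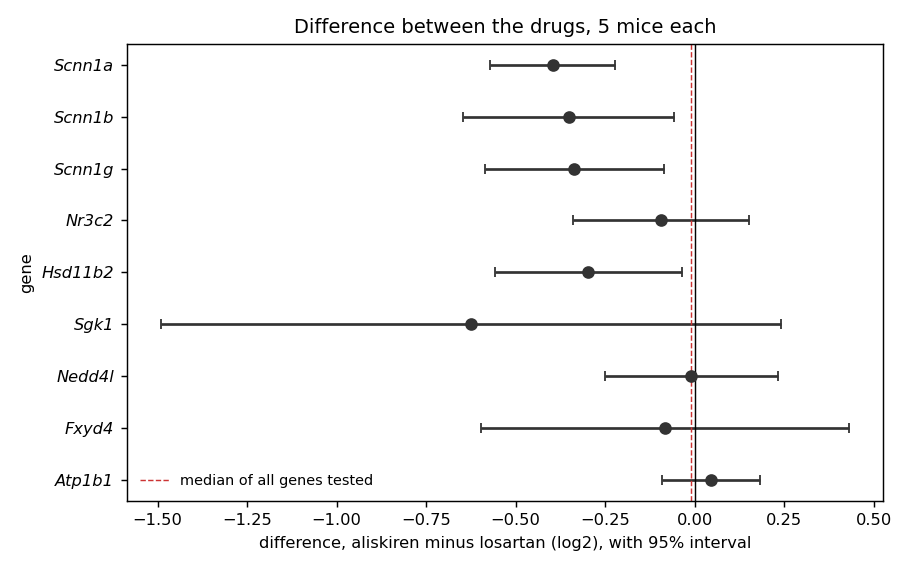
Difference between the drugs on the log2 scale, aliskiren minus losartan, for each of the 9 genes, with the 95% interval from limma (5 mice per group); the dashed line is the median of all genes tested. The intervals of the 3 subunits and of Hsd11b2 lie below 0, and the other 5 include 0.

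Nr3c2 encodes the mineralocorticoid receptor. Its values were 7.11, 7.35, 7.41, 6.79 and 7.12 with losartan and 7.05, 7.12, 7.09, 7.16 and 6.90 with aliskiren. The losartan mice spanned both the highest and the lowest of all values, and the aliskiren mice lay within that span. The difference of -0.09 (SE 0.11, 95% interval -0.34 to 0.15; limma unadjusted p = 0.412, adjusted p = 0.954) was -0.03 without losartan mouse 3, -0.05 without losartan mouse 2 or aliskiren mouse 5 and -0.19 without losartan mouse 4.

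Hsd11b2 encodes the steroid dehydrogenase that inactivates glucocorticoids, which would otherwise occupy the mineralocorticoid receptor. It had 9.64, 9.88, 10.13, 9.64 and 9.49 with losartan and 9.43, 9.36, 9.35, 9.65 and 9.50 with aliskiren. Losartan mice 2 and 3 were the highest, and aliskiren mouse 4 lay above 3 losartan mice. The difference was -0.30 (SE 0.12, 95% interval -0.56 to -0.04; limma unadjusted p = 0.0296, adjusted p = 0.945), with an exact permutation p of 0.0556. Without losartan mouse 3 it was -0.20 (limma unadjusted p = 0.0501), and in 5 of the 10 fits that each left out a mouse the unadjusted p was above 0.05, at most 0.0668.

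Sgk1, the early aldosterone target, differed most between mice. With losartan its values were 11.81, 10.20, 12.17, 10.79 and 11.09, and with aliskiren 10.27, 10.88, 10.27, 10.03 and 11.49. Losartan mice 1 and 3 were highest, aliskiren mouse 5 followed, and the groups overlapped over most of their range. The lowest and the highest mouse were 4.43-fold apart, and the residual SD of 0.70 was at percentile 97.6 of all genes tested, where Scnn1a at 0.12 was at percentile 38.4. The mean difference of -0.62 had a 95% interval from -1.49 to 0.24 (SE 0.39; limma unadjusted p = 0.14, adjusted p = 0.948), so neither a difference of 0 nor a larger one than for the subunits lay outside it. It was -0.38 without losartan mouse 3. Without losartan mouse 2, the lowest of its group, it was -0.88 (unadjusted p = 0.0365), and without aliskiren mouse 5 -0.85 (limma unadjusted p = 0.0499).

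Nedd4l encodes NEDD4-2, the ligase that SGK1 inhibits. Its brightest probe set had 9.34, 9.17, 9.32, 9.47 and 9.25 with losartan and 9.62, 9.16, 9.09, 9.49 and 9.17 with aliskiren. The aliskiren mice split into mice 1 and 4 at the top and the other 3 below the losartan minimum. The mean difference was -0.01 (SE 0.11, 95% interval -0.25 to 0.23; limma unadjusted p = 0.938), and it changed sign in several settings, equal array medians included, so no direction can be given.

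Of the pump genes, Fxyd4 encodes CHIF, a small protein of the collecting duct that modulates the sodium pump. It had 9.70, 10.01, 9.48, 9.77 and 9.15 with losartan and 9.38, 9.51, 9.12, 10.36 and 9.32 with aliskiren. Aliskiren mouse 4 was the highest of all, and the groups overlapped throughout. The difference was -0.08 (SE 0.23, 95% interval -0.60 to 0.43; limma unadjusted p = 0.73); without that mouse it was -0.29, and without losartan mouse 2 or aliskiren mouse 3 it turned to 0.02. Atp1b1 encodes the beta subunit of the pump, which most tubule cells express. Its values lay between 13.95 in losartan mouse 3 and 14.21 in aliskiren mouse 4, within 1.19-fold, near the top of the array's range of 2.10 to 15.06. Its difference was 0.05 (SE 0.06, 95% interval -0.09 to 0.18; limma unadjusted p = 0.471), and 0.01 without losartan mouse 3.

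Further probe sets were at hand for Nedd4l, with 6, and Atp1b1, with 5, while the other 7 genes had 1 each, so their values rest on a single set of probes. For Nedd4l, the probe set of mean 9.21 varied with the brightest one at r = 0.86 over the 10 arrays, that of mean 6.53 at r = 0.81, and that of mean 6.86 at r = 0.34. The probe sets of means 3.45 and 3.05, below the level for testing, had r = -0.29 and r = 0.04. The differences between the drugs lay between -0.10 and 0.12 over these 5 probe sets. For Atp1b1 the other probe sets had r between 0.68 and 0.89 with the brightest one and differences between -0.00149 and 0.16.

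**Figure D3:**
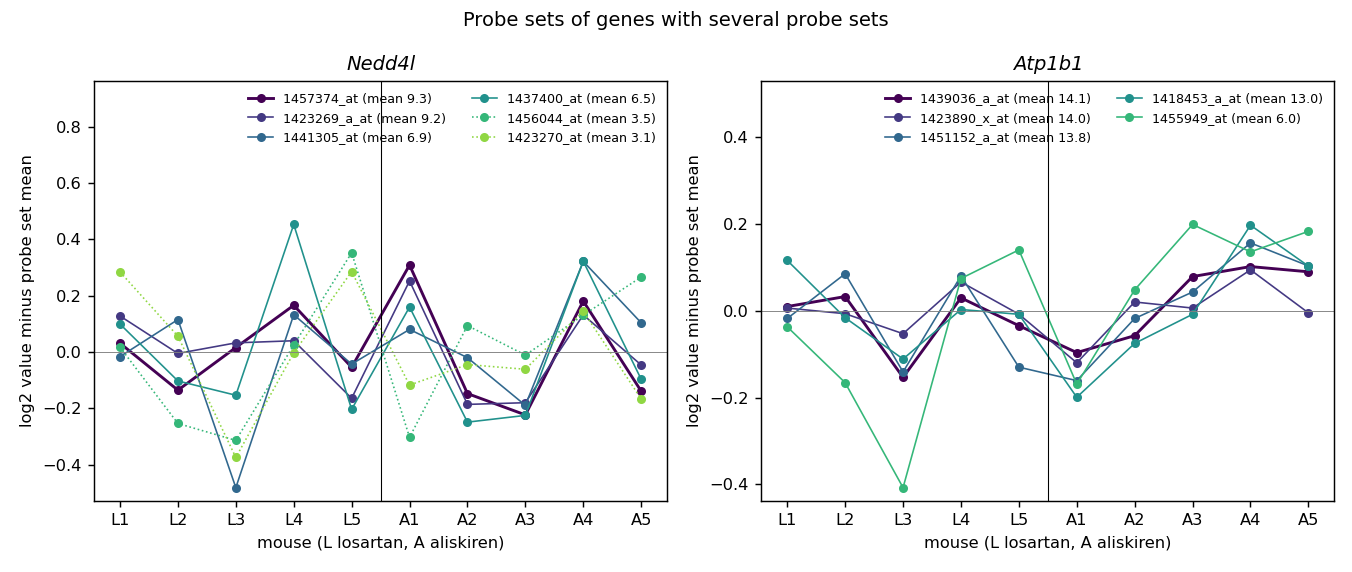
Log2 value of each probe set of Nedd4l and Atp1b1 minus its own mean over 10 mice, for losartan mice L1 to L5 and aliskiren mice A1 to A5; the thick line is the brightest probe set and dotted lines are probe sets below the level for testing. For Nedd4l, the probe sets of mean 9.31, 9.21 and 6.53 are high in A1 and A4, whereas A1 lies only slightly above the mean in that of mean 6.86 and below it in both dotted ones.

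Correlation among the genes was looked at pair by pair. Over 10 mice, 26 of the 36 pairs had a positive Pearson r, with a median of 0.20 (0.12 with drug means removed). Without losartan mouse 3, 22 pairs were positive, with a median of 0.21 (0.09 with drug means removed). The same share over pairs of all tested genes was not computed, so these counts are descriptions. The pair with the highest r was Scnn1b and Hsd11b2 (r = 0.90, permutation p = 0.00093, adjusted over 36 pairs p = 0.0335; Spearman rho = 0.70, permutation p = 0.0303, adjusted p = 0.356). Without losartan mice 2 and 3, farthest from the median of Scnn1b, r was 0.56, so the strength of the relation rests on these mice. With each drug's mean removed r was 0.83, but the adjusted permutation p was 0.65, and without losartan mouse 3 as well r was 0.55. The neighbours Scnn1b and Scnn1g followed with r = 0.78 (permutation p = 0.00941, adjusted p = 0.169; rho = 0.62, p = 0.0603), and r was 0.53 without the same mice. With drug means removed it was 0.60, which turned to -0.14 without losartan mouse 3, so the relation within the drugs rests on that mouse. Scnn1a had r = 0.61 with Scnn1b (permutation p = 0.0417, adjusted p = 0.253; rho = 0.73, p = 0.02) and r = 0.60 with Scnn1g (permutation p = 0.0641, adjusted p = 0.253; rho = 0.56, p = 0.0952). These became 0.12 and -0.04 with drug means removed, and 0.14 and -0.12 without losartan mouse 3 as well. With drug means kept but without losartan mice 1 and 4, farthest from the median of Scnn1a, they were 0.83 and 0.92. The difference between the drugs enters those 2 values. Sgk1 had r = 0.66 with Scnn1g (permutation p = 0.0373, adjusted p = 0.253; rho = 0.43, p = 0.219), which was 0.38 without losartan mice 3 and 5. Of the 36 pairs 1 passed by Pearson r and 0 by Spearman rho or with drug means removed.

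**Figure D4:**
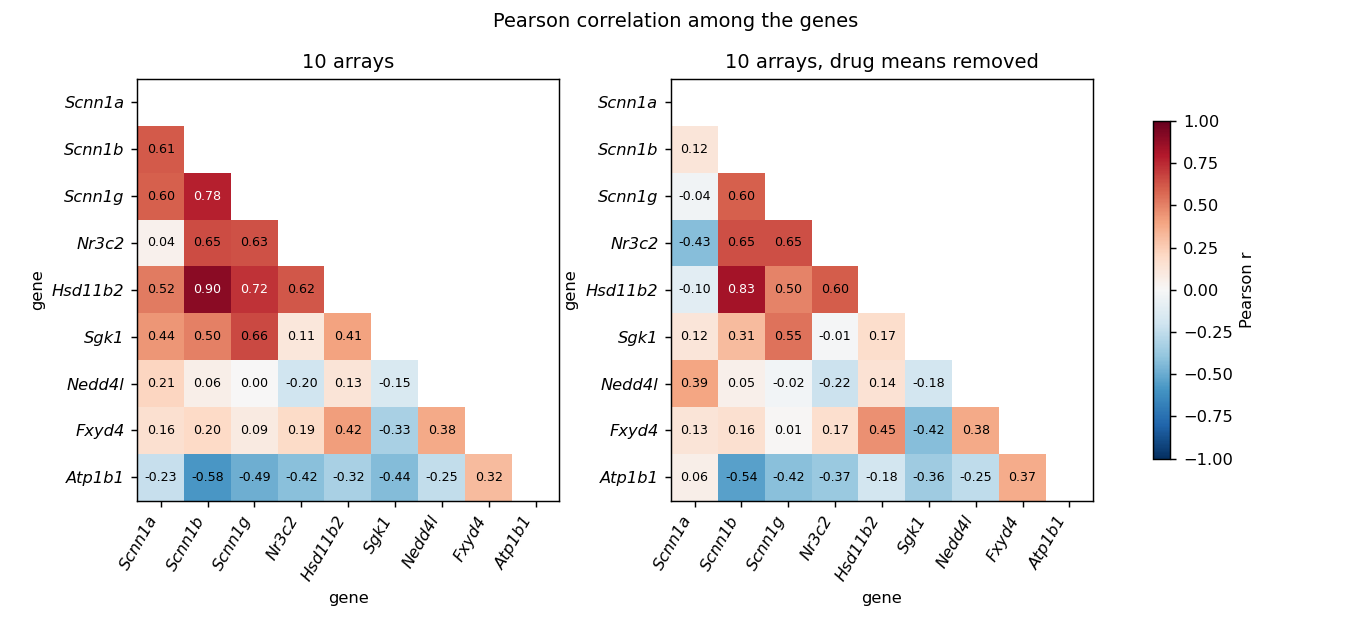
Pearson r over 10 mice for each of the 36 pairs of the 9 genes, on the values as deposited (left) and with the mean of each drug removed (right); red is positive and blue negative. Scnn1b, Scnn1g, Nr3c2 and Hsd11b2 have values between 0.50 and 0.83 with each other on the right, which range from -0.14 to 0.55 without losartan mouse 3, while those of Scnn1a with the other subunits are 0.12 and -0.04.

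Genes whose pattern was most like a subunit's were named from all tested genes by Pearson r over the 10 arrays with drug means removed; being picked for r, they are given as a description. For Scnn1a these were Ankrd9 (r = 0.95), the Wnt acyltransferase gene Porcn (0.92) and Noct, which encodes the rhythmic enzyme nocturnin (0.88). For Scnn1b they were Alkbh6 (0.99), Dcbld2 (0.99) and the palmitoyltransferase gene Zdhhc17 (0.98). For Scnn1g they were Zfp945 (0.99), the Notch regulator gene Nrarp (0.95) and Kcnj10, a potassium channel gene (0.92). For Nr3c2 they were Arnt2 (0.96), the kinase gene Tnk2 (0.96) and Rapgef6 (0.94). Without losartan mouse 3 these values were between 0.85 and 0.98. Kcnj10 also had a lower value with aliskiren, at -0.32 (SE 0.11; limma unadjusted p = 0.018).

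Other genes of the pathway were taken from lists by function. Of 15 tested genes induced by mineralocorticoids or glucocorticoids, 9 had a lower and 6 a higher value with aliskiren, 0 were at an unadjusted p under 0.05, and the median difference was -0.02. Without losartan mouse 3, 7 were lower and 8 higher, and the mean of the list was 9.07 with either drug. Those of smallest p were Tsc22d3, which encodes the leucine zipper protein GILZ, at -0.51 (SE 0.28), the clock gene Per1 at -0.49 (SE 0.27) and Cnksr3, a scaffold for ENaC regulation, at -0.28 (SE 0.16). Without losartan mouse 3, Tsc22d3 was at -0.52, Per1 at -0.27 and Cnksr3 at -0.15. The equal means of the list without that mouse include Lcn2, also a tubular injury marker, at 1.02 (SE 0.65). For this and the following lists, 53.8% of all tested genes were lower with aliskiren, and 2.53% were lower and 2.19% higher at an unadjusted p under 0.05. Without losartan mouse 3 these shares were 50.6%, 2.5% and 2.05%. Of 20 tested genes around SGK1 and NEDD4-2, 6 were lower and 14 higher with a median of 0.02, and 2 were at an unadjusted p under 0.05, in opposite directions. With losartan mouse 3 left out, 7 were lower and 13 higher, of which 1 and 2 were at that level. Wnk1, a kinase of the distal nephron, differed by -0.25 (SE 0.09, limma unadjusted p = 0.0244), and Ndfip1, an activator of NEDD4 family ligases, by 0.30 (SE 0.12, unadjusted p = 0.033), or 0.19 without losartan mouse 3. Ywhaz, an adaptor gene, differed by 0.11 (SE 0.05, limma unadjusted p = 0.0597).

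Proteases that cleave ENaC and their inhibitors had 0 of 7 tested genes at an unadjusted p under 0.05 and a median difference of 0.00. Furin differed by 0.16 (SE 0.08), the urokinase gene Plau by 0.30 (SE 0.20) and St14, encoding matriptase, by -0.18 (SE 0.16), or -0.08 without losartan mouse 3. Prss8, which encodes prostasin, the channel-activating protease of these cells, had 11.81 ± 0.09 (SD, n = 5) with losartan and 11.81 ± 0.20 with aliskiren. Tmprss4 was below the level for testing.

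Among 9 tested genes of the glucocorticoid receptor, chaperones and coregulators, 3 were lower and 6 higher, or 4 and 5 without losartan mouse 3. The chaperone gene Hsp90aa1 was at 0.26 (SE 0.11, limma unadjusted p = 0.0326), the coactivator gene Ncoa2 at 0.17 (SE 0.09) and Nr3c1, the glucocorticoid receptor gene, at 0.08 (SE 0.07). Of 8 chromatin regulators described at the Scnn1a promoter 3 were lower and 5 higher. The acetyltransferase gene Kat2b was at 0.16 (SE 0.07, limma unadjusted p = 0.0481; 0.101 without losartan mouse 3), Kdm4c at 0.10 (SE 0.06) and Mllt3, which encodes AF9, at 0.10 (SE 0.11). None of these lists held a gene past the adjusted threshold, as none of the 11486 genes passed it.

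Other pump genes and transporters of the distal nephron held the lowest p of the pathway lists. Among 5 tested pump and FXYD genes, 4 were lower, and Atp1b2 had 6.49 ± 0.07 (SD, n = 5) with losartan and 6.32 ± 0.05 with aliskiren without overlap (difference -0.17, SE 0.05, limma unadjusted p = 0.00909). Atp1b3 differed by 0.07 (SE 0.07) and Fxyd5 by -0.25 (SE 0.34). Without losartan mouse 3, 2 of the 5 were lower, Fxyd5 was at 0.05 and Atp1b2 at -0.19. Of 10 tested ion transport genes of the distal nephron, magnesium and calcium genes among them, 7 were lower, with a median of -0.06. An unadjusted p under 0.05 was reached by 3 of them. These 3 were the sodium chloride cotransporter gene Slc12a3 at -0.57 (SE 0.14), the magnesium channel gene Trpm6 at -0.49 (SE 0.12) and Kcnj10. Slc12a3 and Trpm6, like Atp1b2, had no overlap between the groups. Over all tested genes, 0.914% had none in either direction. Of 5 other ENaC and acid-sensing channel genes, Asic1 at 0.11 (SE 0.10) and Asic4 at 0.04 (SE 0.10) were bright enough to be tested. Some listed genes were not analysed here.

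Lower values with aliskiren were also found among markers of several cell types, both cells that carry ENaC and others. The shares over all genes were 53.8% lower, and 2.53% lower at an unadjusted p under 0.05. Without losartan mouse 3 these shares were 50.6% and 2.5%. Of 10 tested principal cell markers, none of them among the 9 genes, 7 were lower with aliskiren and 1, the transcription factor gene Gata3 at -0.45 (SE 0.18, limma unadjusted p = 0.0294; -0.27 without losartan mouse 3), was at an unadjusted p under 0.05. Aqp2, the vasopressin-regulated water channel gene, was at -0.47 (SE 0.24, limma unadjusted p = 0.0717). The mean of the markers ran from 8.51 to 9.16 with losartan and from 8.52 to 9.26 with aliskiren. With this mean as a covariate the differences were -0.37 for Scnn1a (SE 0.08, limma unadjusted p = 0.00157), -0.27 for Scnn1b (SE 0.12, unadjusted p = 0.0575), -0.30 for Scnn1g (SE 0.12, unadjusted p = 0.0331) and -0.21 for Hsd11b2 (SE 0.10, unadjusted p = 0.063), and that of Fxyd4 turned to 0.13 (SE 0.16). Of 7 tested connecting and distal tubule markers 5 were lower, with means of 10.88 to 11.52 with losartan and 10.72 to 10.99 with aliskiren. Slc12a3 and Trpm6 belong to this list too, and 2 of its genes were lower at an unadjusted p under 0.05. With losartan mouse 3 left out, 6 of 7 were lower, 3 of them at that level. Of 8 tested intercalated cell markers 7 were lower and 4 were at an unadjusted p under 0.05 (8 of 8 and 4 without losartan mouse 3). Their means were 9.14 to 9.39 with losartan and 8.95 to 9.17 with aliskiren. The lowest p among them was that of the anion exchanger gene Slc4a9, at -0.30 (SE 0.07, limma unadjusted p = 0.00189). Outside the epithelium, 6 of 6 endothelial markers were lower (median -0.28; 5 of 6 and -0.20 without losartan mouse 3), with means of 7.02 to 7.92 with losartan and 7.20 to 7.55 with aliskiren. Flt1, a receptor gene for vascular endothelial growth factor, was at -0.31 (SE 0.10, limma unadjusted p = 0.0114). Thick ascending limb markers went the other way, 5 of 7 being higher with a median of 0.23 (4 of 7 and 0.14 without losartan mouse 3) and means of 10.37 to 11.07 and 10.72 to 11.35. Cldn10, a tight junction gene of that segment, was at 0.35 (SE 0.12, limma unadjusted p = 0.0128). Of 6 macrophage markers 4 were higher (median 0.03), and of 5 fibroblast and matrix markers 2 (median -0.10). Of 6 tubular injury markers 3 were higher (median 0.002), and of 9 proximal tubule markers 4 (median -0.02). Without losartan mouse 3 the counts were 6, 5, 4 and 3, with medians of 0.48, 0.32, 0.46 and -0.11 in the same order. The part of the distal tubule, intercalated cell, endothelial and thick ascending limb markers in the subunit differences was not tested.

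Over the mice, each of the 9 genes was set against the means of 9 marker lists, 81 pairs in all, an analysis added after the data were seen. By Pearson r and by Spearman rho 1 pair passed after adjustment, Scnn1a with the 8 intercalated cell markers (r = 0.92, permutation p = 7e-05, adjusted p = 0.00567; rho = 0.95, permutation p = 9e-05, adjusted p = 0.00729). Without losartan mouse 4 and aliskiren mouse 5, the farthest from the median of the markers, r was 0.84. Since Scnn1a and most of these markers were both lower with aliskiren, the difference between the drugs enters this r; with drug means removed r was 0.83, and the adjusted permutation p was 0.121. Fxyd4 had r = 0.79 with the principal cell markers (permutation p = 0.00612, adjusted p = 0.155; rho = 0.84, p = 0.00369), and 0.86 without losartan mouse 3 and aliskiren mouse 4. With thick ascending limb markers it had r = 0.80 (permutation p = 0.0062, adjusted p = 0.155; rho = 0.78, p = 0.0108), and 0.83 without the same mice. Pairs with the endothelial markers had the same adjusted p. Nr3c2 had r = 0.78 with them (permutation p = 0.00808, adjusted p = 0.155; rho = 0.68, p = 0.0373), and Scnn1g had r = 0.77 (permutation p = 0.00956, adjusted p = 0.155; rho = 0.58, p = 0.0796). Without losartan mice 3 and 4, the farthest from the median of these markers, r was 0.45 for Nr3c2 and 0.64 for Scnn1g.

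**Figure D5:**
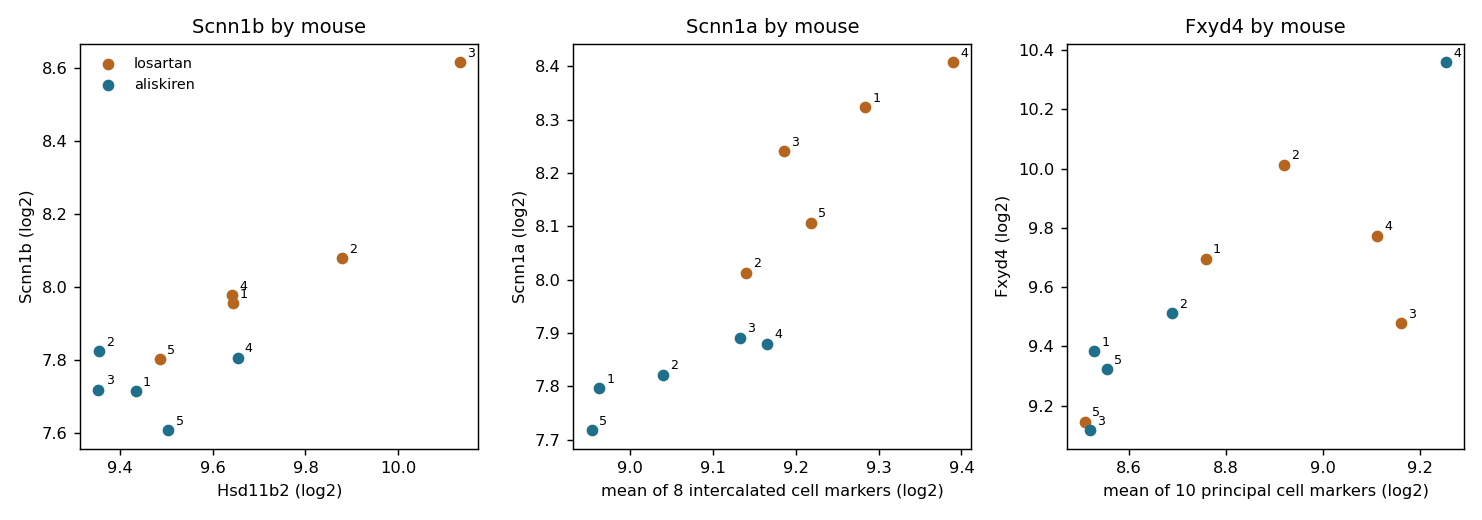
Log2 values of Scnn1b against Hsd11b2 (left), Scnn1a against the mean of 8 intercalated cell markers (middle) and Fxyd4 against the mean of 10 principal cell markers (right) in each mouse, coloured by drug and numbered by mouse. Losartan mouse 3 sets the upper end on the left (8.62), and aliskiren mouse 4 that on the right (10.36).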

How the data were processed

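Total RNA of renal cortex was labelled from 100 ng per mouse, per the labels' protocols. The deposited values are log2 RMA signals of probe sets; the submitters' processing notes name Expression Console 1.1 of Affymetrix. RMA equalises the arrays' distributions, so a global difference in RNA is not visible. Scan dates and batches are not given in the sources used here. Of 45101 probe sets, 64 controls were left out; 34945 of the rest had 1 gene symbol in the platform annotation. The brightest probe set over all arrays stood for a gene, which entered the test if its mean was at least 5.53 (median over non-control probe sets). The fit used limma 3.58.1 in R 4.3.3 (lmFit, eBayes, two-sided, drug as the only term) with Benjamini-Hochberg adjustment over all genes at 0.05, and was tested on simulated data. Errors are SD over 5 mice or limma's SE; the number of arrays limits the precision. Correlations used 100000 permutations, within each drug where drug means were removed, and adjustment over each family. Start-site windows came from RefSeq tables. The genes named are all 9 genes described, up to 3 of smallest p per pathway list, and the 3 most alike per ENaC subunit and Nr3c2; Prss8 and the marker genes were named for their role after their values were seen. Genes, lists and tests were chosen with earlier results of these data known. The mouse numbers name different animals.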

Additional observations from a re-analysis of the deposited data

How the results depend on the processing

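Over 206 refits of the 9 differences, 196 kept their direction and 10 turned, 7 for Nedd4l and 3 for Fxyd4, and the adjusted p lay between 0.638 and 1. Nedd4l stood at 0.0054 with the mean of all probe sets, 9.86e-05 with equal array medians and 0.0354 with the principal cell markers as covariate, and Fxyd4 at 0.13 with that covariate; the cause was not tested. Without single mice Nedd4l ran from -0.0869 to 0.0461, Fxyd4 from -0.29 to 0.0234, Hsd11b2 from -0.36 to -0.20, Sgk1 from -0.88 to -0.38, Scnn1b from -0.42 to -0.22 and Atp1b1 from 0.01 to 0.08. Without losartan mouse 3 and aliskiren mouse 1 together the differences were -0.39 for Scnn1a, -0.21 for Scnn1b, -0.23 for Scnn1g, -0.03 for Nr3c2, -0.20 for Hsd11b2 (limma unadjusted p = 0.0813) and -0.30 for Sgk1. Leaving losartan mouse 3 out of lists and correlations was chosen after seeing the data. The 542 genes at an unadjusted p under 0.05 became 1088 when every probe set was tested on its own, because 22519 probe sets were then tested, and 368 to 804 without single mice. Nr3c2 fell out of the test at the 75th percentile level filter. Pairs past the adjusted threshold went from 1 to 0 with Spearman rho and with drug means removed. The r of Scnn1a and Scnn1g turned to -0.0368 with drug means removed and that of Scnn1b and Nr3c2 to -0.0599 without the 2 mice farthest from the median of Scnn1b. The r of deviations between same-numbered mice lay between -0.23 and 0.42. Mice 4 (0.42) and 5 (0.23) were closest to their own number, and mice 1, 2 and 3 were not. A shared order or batch was not tested. With the mouse number as a block, Scnn1a was at -0.40 (limma unadjusted p = 0.00121, adjusted p = 0.974), Hsd11b2 had an unadjusted p of 0.0644, 450 genes were at an unadjusted p under 0.05, 0 passed, and no call changed. Signal over background was not given with the values, and genes near the level filter are the least certain.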
